A study of Rattus norvegicus with 6 samples.

Results

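DNA damage signalling and repair genes were followed in the renal cortex of rats dosed with monuron, a phenylurea herbicide. The set holds 35 rat genes that were listed by name and that act in damage signalling or in the excision, mismatch, end-joining, recombination and direct reversal pathways. A probe was matched to 31 of the 35 genes through its accession, and 30 of these passed the detection filter, among 30229 genes tested in all. Of the 30229, 12072 had a gene symbol, and the other 18157 were accessions without a symbol, each counted as a gene. Shares and medians of all genes below cover both kinds. Atr, Xrcc3, Lig3 and Msh6 had no probe matched by accession and are not analysed here. Msh6 was the only mismatch repair gene of the set, so that pathway is described from its other genes.

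The tested animals were male Sprague-Dawley (Crl:CD(SD)) rats, purchased at 5 weeks of age, that received monuron at 200 mg/kg/day for 4 weeks. Their controls were male rats of the same stock and purchase age that received corn oil, the vehicle, for 4 weeks. Cortex RNA of 3 rats per group was hybridised to 1-colour Agilent arrays, 1 array per rat, which makes 6 arrays. All 3 monuron arrays lay on 1 slide, and all 3 corn oil arrays lay on another slide that was scanned on a different day. Slide, scan day and treatment therefore cannot be told apart in any value below.

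DNA lesions are removed by separate enzyme systems. Base excision repair cuts out small damaged bases, nucleotide excision repair removes bulky adducts and ultraviolet photoproducts, and mismatch repair corrects copying errors. Breaks through both strands are rejoined directly by end joining or copied from the sister chromatid by homologous recombination, which works mainly in cells that are copying their DNA. The kinases ATM and ATR sense breaks and stalled replication forks and pass the signal to the checkpoint kinases CHK1 and CHK2 and to p53.

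A level is given as the processed probe signal divided by the array's own 75th percentile of signal, so a level of 1 is that percentile. Levels of different genes come from different probes and are not compared with each other. The promoters of the 3 measured genes with the smallest p in the set, Ung, Xrcc4 and Rad54l, are shown from RefSeq (build GRCr8), because these are the genes on which the search for a change turned. Each runs 5′ to 3′ along the gene, from 250 bases before its start to 50 after it, and lies at chr12:48153996-48154295 (minus strand) for Ung, chr2:22932764-22933063 (minus strand) for Xrcc4 and chr5:134841722-134842021 (minus strand) for Rad54l. Capitals mark matches on either strand to an E2F-like core (TTTNNCGC), a CCAAT box (CCAAT) or a CHR element (TTTGAA), letters found in many promoters of genes of the dividing cell.
Ung: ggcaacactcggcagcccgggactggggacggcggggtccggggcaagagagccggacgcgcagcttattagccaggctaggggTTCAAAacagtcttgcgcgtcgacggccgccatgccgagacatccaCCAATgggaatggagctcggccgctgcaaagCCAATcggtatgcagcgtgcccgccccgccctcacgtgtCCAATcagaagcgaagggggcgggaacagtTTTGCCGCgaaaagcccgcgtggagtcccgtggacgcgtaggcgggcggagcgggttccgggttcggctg
Xrcc4: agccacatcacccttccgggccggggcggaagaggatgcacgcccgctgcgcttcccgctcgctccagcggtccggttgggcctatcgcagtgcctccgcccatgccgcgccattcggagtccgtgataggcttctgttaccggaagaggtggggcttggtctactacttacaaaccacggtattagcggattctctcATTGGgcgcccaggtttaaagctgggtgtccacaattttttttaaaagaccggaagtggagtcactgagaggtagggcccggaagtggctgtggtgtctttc
Rad54l: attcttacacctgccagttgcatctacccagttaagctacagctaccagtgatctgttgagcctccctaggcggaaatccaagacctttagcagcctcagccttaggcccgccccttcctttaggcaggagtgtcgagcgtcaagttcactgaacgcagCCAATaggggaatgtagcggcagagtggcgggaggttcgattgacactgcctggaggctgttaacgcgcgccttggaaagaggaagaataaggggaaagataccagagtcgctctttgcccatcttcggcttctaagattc
The Ung window held 1 E2F-like core, 3 CCAAT boxes and 1 CHR element, whereas the Xrcc4 and Rad54l windows each held 1 CCAAT box and 0 of the other letters. Among the 29 genes of the set with a promoter in the table, 24.1% held the E2F-like core, 41.4% a CCAAT box and 10.3% a CHR element. Among all 33469 promoters of the table, of every gene type, these shares were 4.92%, 37.5% and 18.3%. A gene of the set was counted if any of its promoters held the letters. The background counted single promoters, so the shares differ in unit and in gene type. The 7 genes with the E2F-like core were Atm, Chek1, Fancd2, Xrcc6, Ung, Msh6 and Polk. A match of letters is a description and not a binding site.

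No gene of the set passed the test. With limma, 0 of the 30 tested genes were called higher and 0 lower with monuron at an adjusted p under 0.05, where 0.923% of all tested genes were called higher and 0.427% lower. At an unadjusted p under 0.05, 3 genes were higher (Chek2, Rad54l and Polb) and 2 lower (Ung and Xrcc4), where 10.8% and 6.82% of all genes met that limit. The median log2 fold change of the 30 genes was 0.02, the same to that rounding as the median of all genes. The 3 monuron arrays lay above all 3 corn oil arrays for 7 genes, where this held for 15.3% of all genes, and below them for 4 genes, where it held for 10.4%. The 7 genes included Chek1, which passed the detection filter through the monuron arrays alone.

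The intervals were narrow for most genes, but they reflect only the spread among arrays of a group. They do not cover a shift between the slides, nor the choice of scaling. With scaling on spike-in controls all 30 genes were below 0. For 23 of the 30 genes the whole 95% interval of the fold change lay within 1.5-fold in either direction, and for 15 genes the log2 fold change was under 0.1 in size. In simulated arrays built on this comparison, 32.8% of genes changed 1.5-fold and 68.4% of genes changed 2-fold were called, so a change near 1.5-fold would often be missed. Of the 30 genes, 29 were well above background on all 6 arrays.

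**Figure D1:**
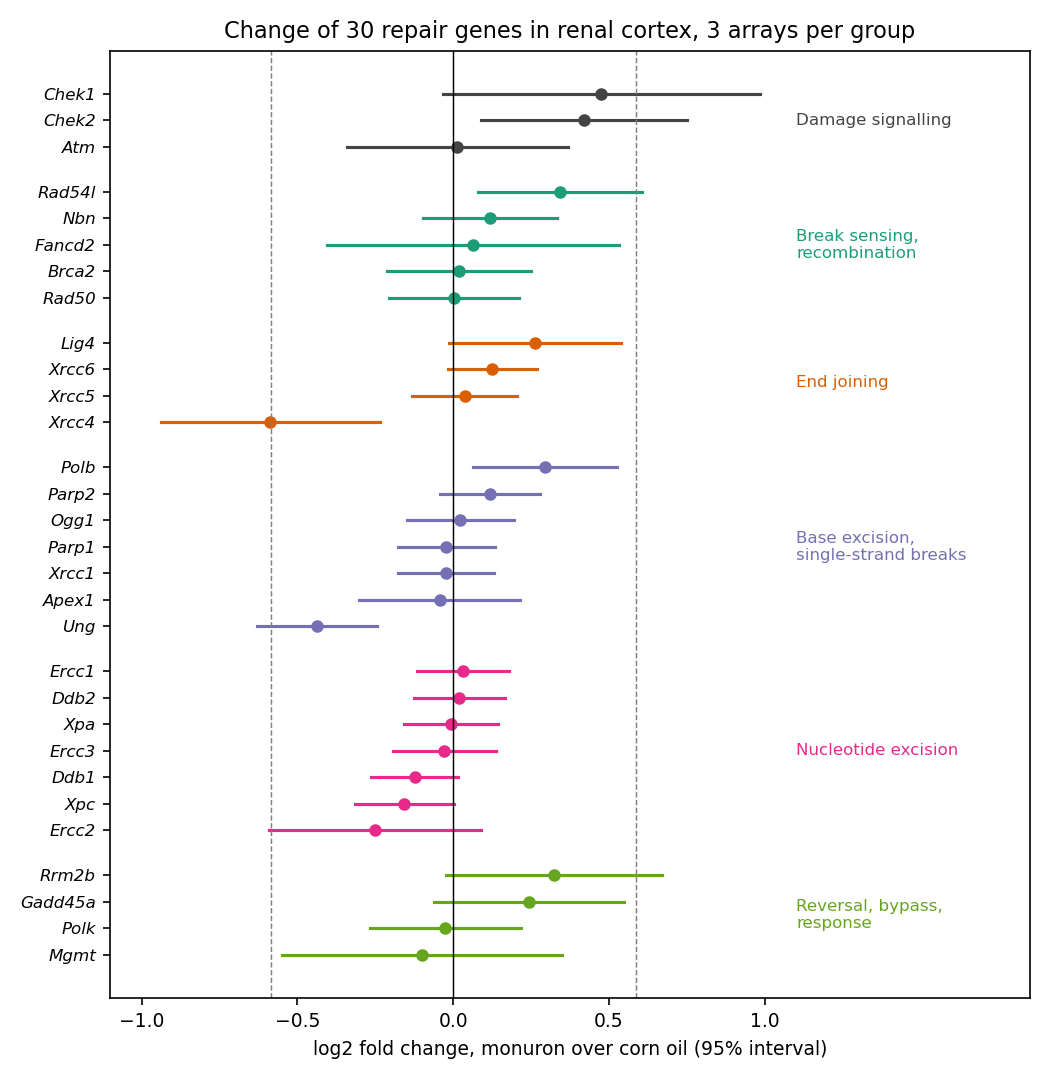
Log2 fold change of monuron over corn oil for the 30 tested genes (points), with the 95% interval from limma (lines), grouped by pathway, with 3 arrays per group. Dashed lines mark 1.5-fold in each direction, and only Xrcc4, Ung, Polb, Rad54l and Chek2 have intervals that leave out 0.

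Among the damage kinases, both checkpoint kinase genes had higher mean levels with monuron and Atm did not. Chek2, which encodes the kinase that ATM activates at breaks, had levels of 0.126, 0.153 and 0.150 on the monuron arrays and 0.114, 0.117 and 0.0901 on the corn oil arrays. The groups did not overlap, and the log2 fold change was 0.42 ± 0.13 (SE), 1.34-fold with a 95% interval of 1.06 to 1.68, which limma did not call (adjusted p = 0.204). Its other probe gave 0.50 ± 0.16, also with no overlap of the groups. Chek1, which encodes the kinase that ATR activates at stalled forks, had levels of 0.0701, 0.0456 and 0.0473 with monuron and 0.0434, 0.0319 and 0.0406 with corn oil. Monuron replicate 1 was well above the other monuron arrays, the groups were close to overlapping, and the log2 fold change was 0.48 ± 0.21 (limma adjusted p = 0.311). On the corn oil arrays Chek1 passed the background limit on 2 of 3, so it entered the test through the monuron arrays alone. Atm, the master kinase of the break response, averaged 0.0581 ± 0.0038 with monuron and 0.0582 ± 0.011 with corn oil (SD, n = 3 each). Its groups overlapped, and the log2 fold change was 0.01 ± 0.14 with an interval of -0.34 to 0.37. The other Atm probe gave -0.006 ± 0.23 and passed the background limit on 2 of 3 corn oil arrays. The interval of Atm overlapped those of Chek1 (-0.03 to 0.98) and Chek2 (0.09 to 0.75), and differences between these genes were not tested.

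The genes of break sensing and recombination showed 1 separation of the groups among the 5 tested. Rad54l, a DNA translocase of homologous recombination, had levels of 0.133, 0.151 and 0.170 with monuron and 0.124, 0.119 and 0.113 with corn oil. Every monuron array was above every corn oil array, and the log2 fold change was 0.34 ± 0.11, 1.27-fold with an interval of 1.06 to 1.52 (limma adjusted p = 0.197). Nbn and Rad50 encode subunits of the complex that binds broken ends. Nbn averaged 3.88 ± 0.26 with monuron and 3.57 ± 0.25 with corn oil, and Rad50 averaged 0.118 ± 0.0039 with monuron and 0.118 ± 0.010 with corn oil (SD, n = 3 each). Brca2, which acts in homologous recombination, had a log2 fold change of 0.02 ± 0.09 by its brightest probe, with an interval of -0.21 to 0.25. A dimmer probe of Brca2 gave 0.42 ± 0.21 and passed the background limit on 2 of 3 corn oil arrays, so the probes of that gene disagreed in size and neither was called. Fancd2, which is monoubiquitinated at DNA crosslinks, stood at 0.06 ± 0.19. The probe of Brca1, which promotes the resection of broken ends, was not well above background on any of the 6 arrays, so no fold is given.

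End joining held the gene with the largest measured change of the set, and that change was a lower level. Xrcc4, the scaffold that holds DNA ligase IV at a break, had levels of 0.201, 0.159 and 0.146 with monuron and 0.271, 0.227 and 0.258 with corn oil. All monuron arrays were below all corn oil arrays, with a log2 fold change of -0.59 ± 0.14 and an interval of -0.94 to -0.24. Limma did not call Xrcc4 (adjusted p = 0.126, and between 0.00443 and 0.298 under the alternatives). The low end came from scaling on spike-in controls, where 20534 genes in all were called lower, and no other alternative called Xrcc4. Lig4, the ligase that XRCC4 holds, pointed the other way with 0.364, 0.412 and 0.450 with monuron and 0.370, 0.343 and 0.308 with corn oil. Its groups overlapped by 1 array, and the log2 fold change was 0.26 ± 0.11 (limma adjusted p = 0.304). Xrcc5 and Xrcc6 encode the Ku subunits that cap broken ends. Xrcc6 averaged 6.29 ± 0.12 with monuron and 5.77 ± 0.072 with corn oil (SD, n = 3 each), without overlap, at a log2 fold change of 0.13 ± 0.06 (limma adjusted p = 0.332), and its dimmer probe gave 0.27 ± 0.09. Xrcc5 stood at 0.04 ± 0.07, with a further probe at -0.09 ± 0.08.

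Of the base excision genes, the glycosylase gene Ung came closest to the threshold of any gene in the set. UNG removes uracil from DNA as the opening step of its repair, and in human cells its nuclear form is made mainly around DNA synthesis. Ung had levels of 1.58, 1.42 and 1.41 with monuron and 2.09, 1.97 and 1.91 with corn oil. All monuron arrays lay below all corn oil arrays. The log2 fold change was -0.44 ± 0.08, an interval of 0.647 to 0.844 as a ratio of monuron over corn oil, and the limma adjusted p was 0.071. Under normexp background correction and quantile normalization together the adjusted p was 0.0308, and with a trended, robust variance it was 0.0357, so the call of Ung depended on such choices. The limma adjusted p ranged from 0.00411 to 0.224 over all alternatives. Its low end came from scaling on spike-in controls, where 20534 genes in all were called lower. The direction of Ung was lower under all 19 alternatives.

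Polb, the polymerase that fills the gap after base removal, moved the other way. Its levels were 0.495, 0.484 and 0.557 with monuron and 0.433, 0.440 and 0.381 with corn oil. The groups did not overlap, and the log2 fold change was 0.29 ± 0.09, 1.23-fold with an interval of 1.04 to 1.44 (limma adjusted p = 0.202). Parp2, which signals single-strand breaks, also had all monuron arrays above all corn oil arrays at 0.12 ± 0.06 (adjusted p = 0.403), and its dimmer probe gave 0.30 ± 0.07 (adjusted p = 0.129), both from limma. The remaining base excision genes had overlapping groups and small changes. These were Ogg1, the 8-oxoguanine glycosylase (0.02 ± 0.07), Apex1, the abasic site endonuclease (-0.04 ± 0.10), Xrcc1, the scaffold of single-strand break repair (-0.02 ± 0.06), and Parp1 (-0.02 ± 0.06). For Ogg1, Xrcc1 and Parp1 the interval excluded a change beyond 1.15-fold in either direction.

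Nucleotide excision genes had log2 fold changes between -0.25 and 0.03, and 5 of 7 were below 0. Xpc, which recognises distorted DNA across the genome, had levels of 1.47, 1.46 and 1.44 with monuron and 1.61, 1.56 and 1.71 with corn oil, at a log2 fold change of -0.16 ± 0.07. Its dimmer probe gave 0.06 ± 0.09, so the probes did not share a direction. Ddb1, the adaptor of the ultraviolet damage ligase, had 6.58, 6.60 and 6.65 with monuron and 7.21, 7.07 and 7.32 with corn oil. Both Ddb1 probes had non-overlapping groups, at -0.12 ± 0.06 and -0.12 ± 0.06, which is a small change beside a small replicate spread (limma adjusted p = 0.333 and 0.397). Ddb2, the damage-binding partner of DDB1 and a p53 target in human cells, stood at 0.02 ± 0.06 with an interval of -0.13 to 0.17. Ercc2 and Ercc3 encode the helicases of the transcription factor TFIIH. Ercc2 had a log2 fold change of -0.25 ± 0.14 with overlapping groups, and Ercc3 of -0.03 ± 0.07, where a further probe gave 0.10 ± 0.06. Ercc1, a subunit of the nuclease that cuts beside the lesion, stood at 0.03 ± 0.06 and Xpa, which checks the lesion, at -0.01 ± 0.06.

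**Figure D2:**
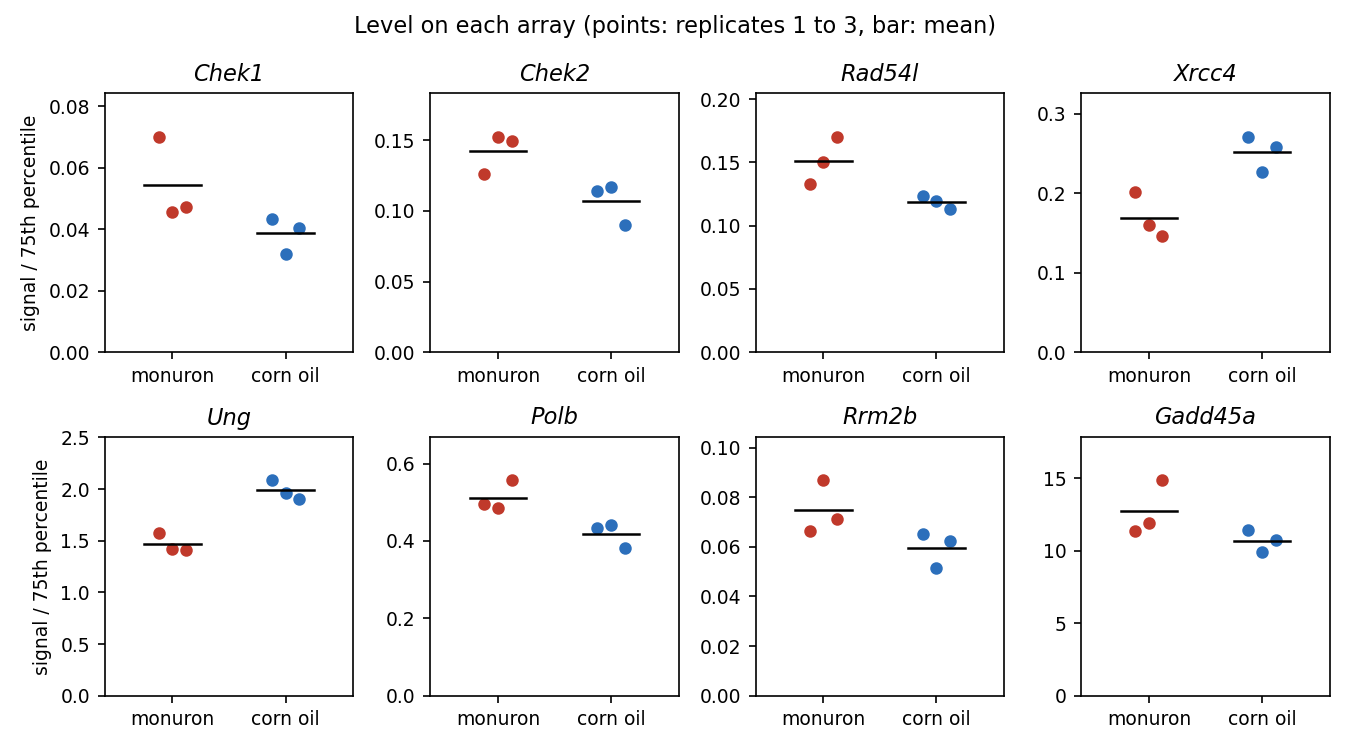
Level (processed signal over the array's 75th percentile, linear axis from 0) on each array for 8 genes, with monuron left and corn oil right. Points are replicates 1 to 3 and bars are means. The groups are separate for Chek1, Chek2, Rad54l, Polb and Rrm2b (higher) and for Xrcc4 and Ung (lower), and overlap for Gadd45a by 1 array. Chek1 passed the detection filter through the monuron arrays alone.

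The remaining genes act by direct reversal, bypass or in the response to damage. Mgmt, which takes methyl groups off guanine in a single step, varied widely among the monuron rats, with 4.09, 3.35 and 5.52 against 4.57, 4.65 and 4.39 in the corn oil rats. The corn oil values lay within the spread of the monuron values, and the log2 fold change was -0.10 ± 0.18. Polk, a polymerase that copies past bulky lesions, stood at -0.03 ± 0.10. Rrm2b, the p53-inducible subunit of ribonucleotide reductase, had levels of 0.0664, 0.0869 and 0.0711 with monuron and 0.0653, 0.0516 and 0.0623 with corn oil. Its groups were separated by a narrow gap, at a log2 fold change of 0.32 ± 0.14 (limma adjusted p = 0.311). Gadd45a, a stress gene induced by p53 and by other routes, had 11.4, 11.9 and 14.9 with monuron and 11.4, 9.88 and 10.8 with corn oil. Its groups overlapped, at 0.24 ± 0.12 (limma adjusted p = 0.373).

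The pathways of the set were also read side by side. The median log2 fold change was 0.06 for break sensing and recombination (5 genes tested), 0.08 for end joining (4 genes), -0.02 for base excision and single-strand break repair (7 genes) and -0.03 for nucleotide excision (7 genes), beside 0.02 for all genes. Excision repair as a whole, with 14 genes, had a median of -0.02. The median was 0.42 for damage signalling (3 genes tested) and 0.11 for reversal, bypass and damage response (4 genes). Differences between pathways were not tested. Of the 14 genes with more than 1 passing probe, 7 had probes that all pointed the same way and 7 had probes of opposite sign. Xrcc4, Ung, Rad54l and Polb each had 1 matched probe, so no further probe could be read for them.

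The other genes of these pathways, 122 listed symbols in lists that leave out the set, were read in the same fit. Of 89 tested, 5 were called higher and 0 lower with limma, which is 5.62% against the 0.923% of all genes called higher. The median log2 fold change of the 89 was 0.07. These lists too were chosen with earlier results of these data known, so that share is no independent evidence. Ube2t, Rrm2, Timeless and Exo1 were among the 5 called. Ube2t, the ubiquitin-conjugating enzyme that modifies FANCD2, had levels of 0.293, 0.343 and 0.321 with monuron and 0.0741, 0.0869 and 0.0659 with corn oil. It was 4.24-fold higher (interval 3.43 to 5.23, limma adjusted p = 0.00703), with every monuron array above every corn oil array. Its substrate gene Fancd2 stood at 0.06 on the log2 scale, with a wide interval of -0.41 to 0.53. The probe of Fancd2 was dim, with mean levels of 0.0499 with monuron and 0.0477 with corn oil.

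Genes of replication and resection were also among those that rose. Rrm2, the replicative subunit of ribonucleotide reductase, rose 3.22-fold (interval 2.37 to 4.37, limma adjusted p = 0.0215), while its p53-inducible relative Rrm2b stood at 1.25-fold (0.984 to 1.59). Timeless, which protects the replication fork, rose 1.51-fold (limma adjusted p = 0.0442). Exo1, an exonuclease of mismatch repair and of break resection, rose 1.40-fold (limma adjusted p = 0.043) by its brightest probe. With scaling on spike-in controls, where the median of all genes was -0.48 on the log2 scale, it stood at -0.02. A further Exo1 probe gave 0.32 ± 0.23. The calls of Timeless and Exo1 were lost under 12 and 16 of 19 alternatives, that of Rrm2 under 8 and that of Ube2t under 2. Leaving out any 1 array left 1 or 2 of the 5 calls, Ube2t each time, and 0 were left without monuron replicate 1 and corn oil replicate 3 together. The log2 fold changes with any 1 array left out stayed between 1.99 and 2.19 for Ube2t, 1.51 and 1.80 for Rrm2, 0.54 and 0.65 for Timeless and 0.44 and 0.51 for Exo1.

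Among mismatch repair genes, which the set itself does not measure, 7 of 7 listed genes were tested and Exo1 was the 1 called higher. Their median log2 fold change was 0.13, with 5 genes above 0 and 2 below. All monuron arrays lay above all corn oil arrays for 3 of the 7, where this held for 15.3% of all genes. No further list held a call in nucleotide excision (14 genes tested), end joining (6 genes) or base excision (15 genes), where 0, 0 and 2 genes had an unadjusted p under 0.05 by their brightest probe. The smallest p in the base excision list belonged to Neil1, a glycosylase for oxidised bases, which had 0.343, 0.341 and 0.376 with monuron and 0.441, 0.432 and 0.457 with corn oil. Its groups did not overlap, and the log2 fold change of -0.33 ± 0.07 was not called (limma adjusted p = 0.101). In the end joining list Nhej1, an XRCC4-like factor, stood at -0.41 ± 0.17 by its brightest probe with overlapping groups. Its dimmer probe gave -0.47 ± 0.12 without overlap (limma unadjusted p = 0.00781, adjusted p = 0.137). Dclre1c, the nuclease Artemis, stood at -0.58 ± 0.36. Dclre1c had 1.17 on corn oil replicate 2 against 0.472 and 0.528 on the other corn oil arrays. In nucleotide excision the smallest p values belonged to Rad23b (0.10 ± 0.06) and Ercc6 (0.12 ± 0.08, with further probes at 0.30 ± 0.18 and -0.24 ± 0.20), and in base excision Tdp2 followed Neil1 (0.20 ± 0.06).

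For comparison, p53 targets and cell division genes were read in the same fit. Of 18 p53 target genes tested, 5 were called higher and 0 lower, where 0.923% of all genes were called higher and 0.427% lower. The list median was 0.41 on the log2 scale, with 15 genes above 0 and 3 below. Gadd45g, which was not called, stood at -1.08 ± 0.25 with all monuron arrays below all corn oil arrays (limma adjusted p = 0.114). The 5 called genes were Gdf15 (2.70-fold), Fas (1.65-fold), Ccng1 (2.08-fold), Plk2 (3.17-fold) and Psrc1 (1.79-fold). Each of these 5 calls was lost under 5 to 9 of the 19 alternatives. With any 1 array left out the log2 fold changes were 1.36 to 1.54 for Gdf15, 0.69 to 0.77 for Fas, 0.99 to 1.17 for Ccng1, 1.48 to 1.78 for Plk2 and 0.74 to 0.90 for Psrc1. Of 14 cell division genes, 11 were called higher and 0 lower with a median of 1.43. The smallest p was that of Ccnb2, a mitotic cyclin (3.41-fold, interval 2.96 to 3.93, limma adjusted p = 0.00494). All 14 genes had every monuron array above every corn oil array, where this held for 15.3% of all genes. Their summed level was 11.2, 12.6 and 10.9 with monuron and 4.82, 4.73 and 4.40 with corn oil. Both lists were chosen with earlier results of these data known, so their direction is no independent evidence, and the part of cell division in the rises of Ube2t, Rrm2, Timeless and Exo1 was not tested. In whole cortex a change in the number of cells of a type and a change in RNA per cell cannot be told apart.

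**Figure D3:**
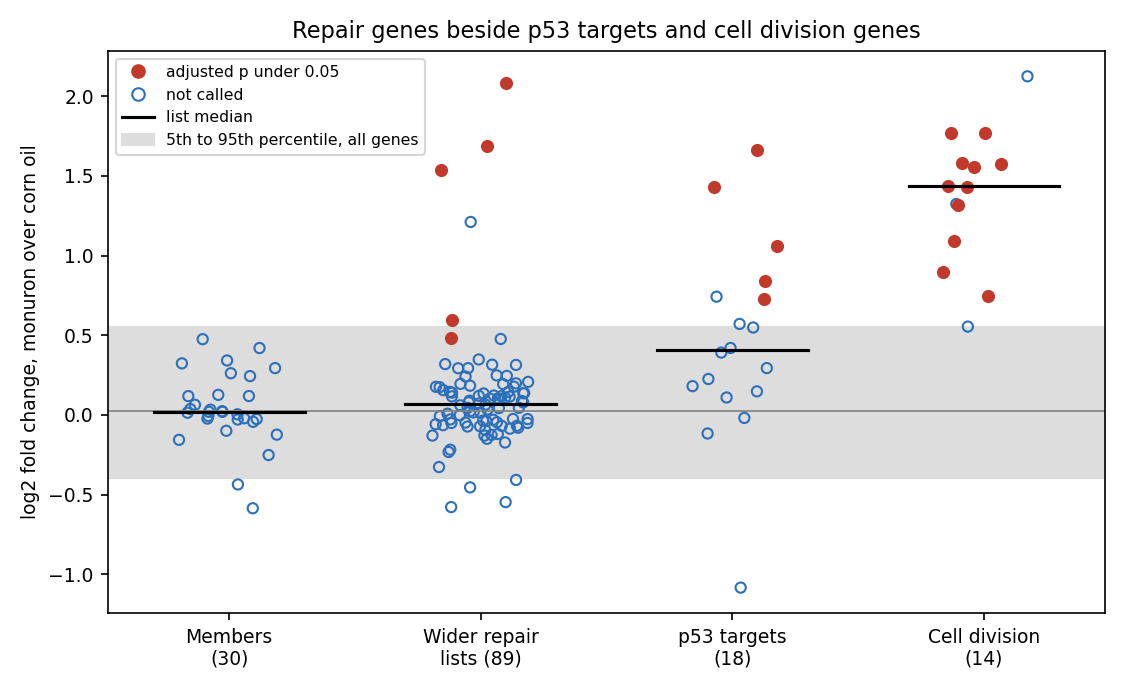
Log2 fold change of monuron over corn oil for each tested gene of the set, of the wider repair lists, of the p53 targets and of the cell division genes (points, red where limma's adjusted p was under 0.05), with list medians as black bars. The grey band spans the 5th to 95th percentile of all genes (-0.39 to 0.55), which holds 28 of the 30 genes of the set.

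The arrays held nephron transcripts, but no other part of the kidney was compared, so the cortex label was not tested. All 8 proximal tubule markers, 7 distal nephron and collecting duct markers and 5 podocyte markers were detected, with summed proximal tubule levels of 1179 to 1284 with monuron and 1374 to 1476 with corn oil. Of 7 red cell markers tested 5 were called higher, with a summed level of 1521 to 1635 with monuron and 647 to 890 with corn oil. The uncalled markers, Ahsp (4.22-fold) and Slc4a1 (1.91-fold), were also higher with no overlap of the groups. Of 10 hepatocyte markers tested 0 were called, with a summed level of 87.6 to 125.5 with monuron and 85.7 to 119.6 with corn oil. Most of that sum was Cyp2e1, which averaged 75.6 with monuron and 82.6 with corn oil. The mean log2 level of the 10 markers was 1.72, 0.550 and 0.491 with monuron and -0.201, -0.578 and 1.15 with corn oil. Alb had 15.3, 4.35 and 4.11 with monuron and 1.33, 1.09 and 6.35 with corn oil. Of 5 macrophage and T cell markers tested 0 were called, with a summed level of 3.02 to 3.88 with monuron and 3.78 to 4.75 with corn oil. The part of these transcripts in the repair gene values was not tested. The share of probes above the background limit ran between 60.9% (corn oil replicate 2) and 70.4% (monuron replicate 1), and the 75th percentile of signal lay between 824 and 922 units.

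The scaling touches every value. With scaling on spike-in controls the median over all genes stood at -0.48 on the log2 scale instead of 0.02, and that of the set was also -0.48, so the changes given are relative to the other genes on the array. All genes of the set were then below 0 and 23 were called lower, beside 20534 genes in all.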

How the data were processed

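Spot intensity, on a linear scale, comes from the deposited scanner files. The submitters' processing notes name Agilent Feature Extraction 10.7 for this step. The deposited value table of the authors holds a linear ratio, equal to that signal over 1 constant per array within 0.0377% for 99% of its values of at least 0.1. No depth applies to arrays, and their number (3 per group) limits the precision.

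The processed signal of the 61537 non-control probes was put on the log2 scale, and each array's 75th percentile was subtracted. Control spots (1439) and flagged outlier spots were dropped, and 0 spots were saturated. Probes well above background on all 3 arrays of a group were kept (41125). Accessions were matched to a RefSeq table (GRCr8), which named 45.8% of probes, and no gene coordinates are given because the array cites an older build. The brightest probe stood for each gene, where an accession without a symbol was counted as a gene. Values of further probes come from a fit of every probe on its own. The comparison used limma 3.58.1 in R 4.3.3 (two-sided, Benjamini-Hochberg over 30229 genes, threshold 0.05), and gene errors are SE. The fit was tested on simulated arrays of 30208 genes, where 43 of 753 calls were false. Named were all genes of the set and, per further list, up to 6 called genes or else the 2 with the smallest p, except that some items are not reported here, while the tissue markers were added after their values were seen. The genes and lists were chosen with earlier results of these data known. Alternatives were scaling, normexp background correction joined with quantile normalization, the authors' table, filters, a floor, probe means, variance model, the replicate block, and leaving out arrays.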

Additional observations from a re-analysis of the deposited data

How the results depend on the processing

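The 75th percentile is a relative scale, and scaling on spike-in controls changed the results most: 20534 genes were then called lower, 23 of them in the set and 67 in the wider repair lists. That scaling turned Atm to -0.49 on the log2 scale, Chek1 to -0.029, Chek2 to -0.084, Rad50 to -0.50, Nbn to -0.39, Brca2 to -0.48, Rad54l to -0.16, Fancd2 to -0.44, Xrcc5 to -0.47, Xrcc6 to -0.38, Lig4 to -0.24, Ogg1 to -0.48, Polb to -0.21, Parp2 to -0.39, Ddb2 to -0.49, Ercc1 to -0.47, Rrm2b to -0.18, Gadd45a to -0.26, Tdp2 to -0.31, Rad23b to -0.40, Ercc6 to -0.39 and Exo1 to -0.022. The other sign changes were of small values. Without scaling they were Apex1 (0.044), Xrcc1 (0.064), Parp1 (0.066), Xpa (0.080), Ercc3 (0.058) and Polk (0.061), and 61 genes were called lower. With normexp and quantile normalization together they were Atm (-0.013), Rad50 (-0.012), Brca2 (-0.030), Fancd2 (-0.034), Xrcc5 (-0.015), Ogg1 (-0.043), Xrcc1 (0.054), Parp1 (0.020), Xpa (0.067) and Ddb2 (-0.055). They were Atm (-0.011) with quantile normalization alone, Rad50 (-0.00027) with median centring, and Xrcc5 (-0.027), Parp1 (0.024), Ercc3 (0.036) and Polk (0.11) when each gene's probes were averaged.

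The 0 calls in the set held under every alternative run except spike-in scaling, normexp with quantile normalization (1 lower, Ung) and a trended, robust variance (1 lower, Ung). Over all genes, normexp with quantile normalization gave 449 higher and 316 lower, the trended, robust variance 431 and 282, and no detection filter 67 and 19. In the wider repair lists 3 genes were called higher with normexp and quantile normalization, 3 with median centring and 1 without a detection filter. Leaving out 1 array at a time gave 27 to 111 genes higher, 7 to 26 lower and 1 to 2 higher in the wider lists. Changes of sign then had ranges of -0.12 to 0.043 for Apex1, -0.067 to 0.16 for Atm, -0.048 to 0.081 for Brca2, -0.069 to 0.0083 for Ercc3, -0.093 to 0.20 for Fancd2, -0.29 to 0.068 for Mgmt, -0.012 to 0.070 for Ogg1, -0.054 to 0.0064 for Parp1, -0.089 to 0.043 for Polk, -0.046 to 0.074 for Rad50, -0.034 to 0.016 for Xpa and -0.044 to 0.0050 for Xrcc1.

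Without monuron replicate 1 and corn oil replicate 3, the arrays highest in hepatocyte transcripts (chosen after seeing the data), 0 genes were called higher, 0 lower and 0 in the wider lists, with 4137 at an unadjusted p under 0.05. Sign changes there were Atm (-0.067), Brca2 (-0.0082), Parp1 (0.020) and Ddb2 (-0.0013). Same-numbered arrays did not vary together (correlations of -0.0812, 0.102 and -0.161 for replicates 1 to 3), and with the replicate block 0 genes were called in either direction, 0 of them in the wider lists, with 4554 at an unadjusted p under 0.05. The cause of these losses was not tested. Probes near background, such as those of Chek1 and Brca1, limit what can be read.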
